A study of Rattus norvegicus with 54 samples.

Results

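The 44 genes described here encode enzymes of glycolysis, the pyruvate dehydrogenase complex and the citric acid cycle, measured by RNA-Seq in the hearts of 54 rats. They were picked out by gene symbol from a list of these pathways, and all 44 were found among the 10257 genes of the expression table. The list holds 17 enzymes of glycolysis with lactate dehydrogenase, 5 subunits of the pyruvate dehydrogenase complex, 15 subunits and enzymes of the citric acid cycle and 7 linked enzymes that exchange metabolites with it. The rats were male wildtype Wistar animals of about 7 to 8 weeks at the start, each housed alone under 12 h of light and 12 h of dark. Control rats (C, 18 rats) were left undisturbed with food and water at all times. Shift worker rats (W, 18 rats) were kept in a slowly rotating drum in the light phase on weekdays for 5 weeks, with food and water at all times. The third group (WRF, 18 rats) did the same work but had food only outside working hours. Hearts were taken on a weekend day without work at zeitgeber times (ZT, hours after lights on) 1, 5, 9, 13, 17 and 21, from 3 rats at each time in each group. The control is undisturbed and has no drum of its own, so handling and work cannot be told apart. The purpose given for the series is to learn how shift work and the timing of food affect the heart.

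Glycolysis splits glucose into pyruvate in the cytosol. The pyruvate dehydrogenase complex turns pyruvate into acetyl-CoA in the mitochondrion, and the citric acid cycle oxidises acetyl-CoA to feed the respiratory chain. The heart draws most of its energy from fatty acids and the rest largely from glucose and lactate, so the complex is a point at which the choice between these fuels is set. The muscle clock is known to time several genes of glucose use, among them hexokinase and the pyruvate dehydrogenase kinase Pdk4.

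Levels are given in fpkm, fragments per kilobase of transcript scaled to the mapped fragments of the library, which allows genes of different length to be compared. The number of reads behind a value is not in the table, so no counting interval is given. Each library is a piece of atrium and ventricle in unknown proportion. The 4 atrial markers Myl7, Sln, Nppa and Myl4 were all measured, and their summed level ran from 48.3 to 55788 fpkm in C, from 45.2 to 62455 in W and from 60.9 to 54998 in WRF. There were 6 C, 7 W and 9 WRF libraries with more than 100 fpkm of Myl7. Libraries that stand apart are WRF51, with 1419 fpkm of the lung marker Ager and 52.1 of the cardiac myosin Myh6 against a WRF median of 2703, and WRF62, with 106 fpkm of the T cell gene Cd3e and 371 of Myh6. W21 held 1027 fpkm of the liver gene Alb beside 2330 of Myh6. The clock gene Arntl also went against the time labels in the W33 to W38 series. It was at 2.52 fpkm at ZT1 and at 8.94 and 9.68 fpkm at ZT13 and ZT17, where no other W or C heart exceeded 1.68 fpkm. Many results that rest on these libraries are given with and without them, and some are given with all hearts only. In such bulk samples, fewer cells of a type and less RNA per cell cannot be told apart.

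The stretches of DNA below are shown because they hold the E-box, the letters CACGTG, to which the clock factors CLOCK and ARNTL are known to bind, and because they belong to members described further down. RefSeq promoters of the GRCr8 build, 250 bases before to 50 bases after the annotated start, could be matched to 42 of the 44 members (46 promoters). Both strands were searched. The E-box stood in the promoters of 3 members, Ogdh, Pdhb and Ldha. This was 6.52% of the 46 member promoters, near the 6.42% of all 33469 promoters. Each line gives the 30 bases around 1 match on the plus strand, 5′ to 3′, with the E-box in capitals.
Ogdh, chr14:85363811-85363840: ttggaagcttctCACGTGtgccttctaatg
Pdhb, farther match, chr15:19182591-19182620: tgttgcaagattCACGTGttgctcaaggcc
Pdhb, nearer match, chr15:19182680-19182709: actcagtcctagCACGTGagcagacagcag
Ldha, chr1:106507993-106508022: tagcccagcctaCACGTGggttcccgcacg
The match lay 208 bases before the annotated start in Ogdh, 186 and 97 bases before it in Pdhb and 87 bases before it in Ldha. The D-box TTATGTAA was in no member promoter and in 0.893% of all promoters. The element of oestrogen-related receptors, TCAAGGTCA, was in that of Sdhd and in 0.433% of all. The NRF1 element GCGCATGCG was in those of Pgam1 and Shmt2 and in 1.52% of all. No match of 1 motif overlapped a match of another. These letters describe the sequence only and say nothing of whether a factor binds there.

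The members covered a wide range of levels. The median over the 18 C hearts was highest for Gapdh (2733 fpkm), which makes the first NADH of glycolysis, and for Ldhb (2052 fpkm), the heart form of lactate dehydrogenase. Aldoa, the muscle aldolase, followed at 1647 fpkm and the mitochondrial isocitrate dehydrogenase Idh2 at 1018 fpkm. At the other end stood Pfkp (5.96 fpkm), the platelet form of phosphofructokinase, and Hk2 (11.6 fpkm), the insulin-regulated hexokinase. No member was at 0 in any heart. The row of Tpi1 has an exact copy under a second name, and Gapdh, Pgam1, Ldha and Pgk1 have near-identical pseudogenes in rodents, so their values are less certain.

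Averaged over the day, none of the 44 members was called different between W and C (0 of 44), beside 0.429% of all genes, by the call used here: a Kruskal-Wallis adjusted p of at most 0.05 among the 3 groups and a Mann-Whitney p under 0.05 between the pair. Neither the Mann-Whitney test nor limma gave an unadjusted p under 0.05 for any member. By limma, the median log2 difference of W from C was -0.06 over the members, from -0.15 to 0.16, and -0.01 over all genes. The medians were -0.06 for glycolysis, 0.00 for the pyruvate dehydrogenase complex and -0.06 for the citric acid cycle. These values cover the W hearts of all times, so a difference at 1 time is diluted in them. Without the C25 to C30 series (6 hearts, 1 per time), 11 members had an unadjusted Mann-Whitney p under 0.05 between W and C, beside 10.4% of all genes, against none with all rats, beside 2.64%. Of the 11, Shmt2 was called, beside 1.23% of all genes.

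The only member that passed the Kruskal-Wallis test among C, W and WRF was Shmt2, beside 9.17% of all genes. Shmt2 is the mitochondrial serine hydroxymethyltransferase, which makes glycine and one-carbon units from serine. Its lowest, median and highest values were 11.8, 14.5 and 19.6 fpkm in C, 9.76, 14.0 and 15.8 fpkm in W and 12.2, 17.4 and 40.5 fpkm in WRF. The WRF hearts lay higher as a group, but the lowest WRF hearts were within the range of both other groups. The highest, at 40.5 fpkm, was WRF62. Among the 16 WRF hearts other than WRF51 and WRF62 the Spearman correlation of Shmt2 with Myl7 was 0.95, given as a description. In the C and W hearts this correlation was 0.15 and -0.17. The adjusted Kruskal-Wallis p was 0.045 and the Mann-Whitney p of WRF against W 0.0020, the log2 difference by limma being 0.37 ± 0.09 (SE; adjusted p = 0.0126). Of all genes, 8.26% were called higher in WRF than in W and 8.13% higher in WRF than in C. The Shmt2 call against C was not made (Mann-Whitney p = 0.0517), and among hearts with at most 100 fpkm of Myl7 its adjusted Kruskal-Wallis p was 0.924, with a log2 ratio of the medians, WRF to W, near 0, while over all hearts it was 0.31. The call was also lost when any of 6 of the 9 series of hearts was left out. These were all 3 of W, C17 to C22, and the WRF series with WRF62 and with WRF51. Without the WRF41 to WRF46 series, which includes WRF62, the ratio was 0.08 (adjusted Kruskal-Wallis p = 0.435). With only WRF51, WRF62 and W21 left out, Shmt2 was called in W against C and in WRF against C. No share of all genes is given beside these calls.

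The next members by Kruskal-Wallis p are given with no call. Pfkp had lowest, median and highest values of 3.58, 5.96 and 13.7 fpkm in C, 4.59, 5.76 and 16.5 fpkm in W and 4.78, 7.84 and 17.7 fpkm in WRF, with an adjusted p of 0.0655. The groups overlapped over most of their range. With low genes (mean under 5 fpkm) left out, Pfkp passed the Kruskal-Wallis test as a second member. Mdh2, the mitochondrial malate dehydrogenase, ran from 496 over a median of 734 to 981 fpkm in C, from 445 over 702 to 895 in W and from 95.2 over 817 to 1053 in WRF. Mdh1, its cytosolic partner in the malate-aspartate shuttle, ran from 537 over 635 to 839 fpkm in C, from 440 over 597 to 734 in W and from 74.4 over 684 to 809 in WRF. In both genes the lowest WRF heart was WRF51. The E1 beta subunit gene Pdhb had medians of 158, 160 and 174 fpkm in C, W and WRF, with ranges of 105 to 191, 89.4 to 185 and 35.03 to 229. Pgam1, the brain form of phosphoglycerate mutase, had medians of 95.1, 93.9 and 111 fpkm, with ranges of 68.9 to 148, 66.8 to 199 and 78.4 to 149. All 6 of these members had a higher median in WRF than in W, and their 3 groups overlapped. Of all 44 members, 40 had a higher median in WRF than in W, and of all 10257 genes 6508 did. The limma difference of WRF from W, a mean over hearts that takes in WRF51 and WRF62, had the other sign, with a median log2 value of -0.03 over the members, -0.15 over the pyruvate dehydrogenase complex and -0.04 over the citric acid cycle, and of 0.08 over all genes.

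**Figure D1:**
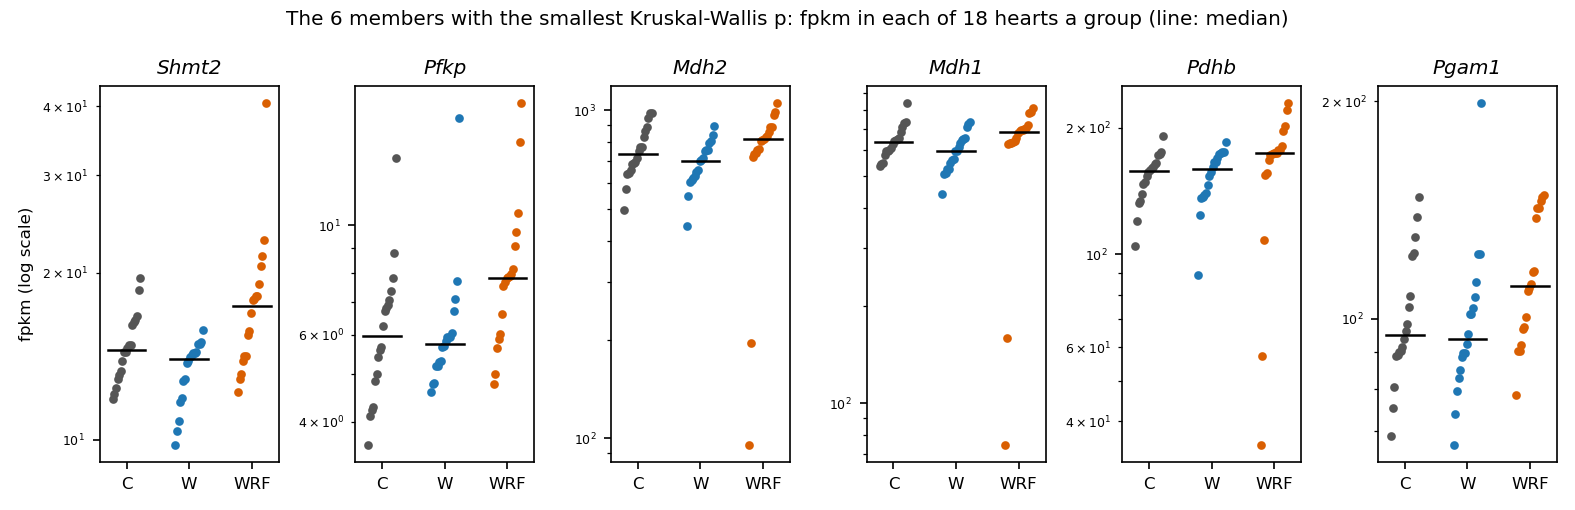
Each point is the fpkm of 1 heart, on a log axis of its own range for each gene, sorted within C, W and WRF (18 hearts each), with a line at the median. Shmt2 lies higher in WRF as a group, the groups overlap in every gene, and the lowest points of Mdh2, Mdh1 and Pdhb in WRF belong to WRF51 and WRF62.

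Over the day, the median level of each list in W hearts was on average lowest at ZT1 and highest at ZT9 or ZT13. To put the genes on 1 scale, each value was divided by the gene's mean over the 54 hearts, and the median over a list was taken in each heart. For the citric acid cycle in W, the mean of this relative level over the 3 hearts of a time began at 0.820 at ZT1. It was then 0.902 (ZT5), 1.08 (ZT9), 1.06 (ZT13), 0.990 (ZT17) and 1.01 (ZT21). For the pyruvate dehydrogenase complex it went from 0.810 at ZT1 to 1.10 at ZT13, with 1.06 at ZT9 and 1.07 at ZT17. For glycolysis it went from 0.887 at ZT1 to 1.05 at ZT9. For the linked enzymes it went from 0.738 at ZT1 to 1.03 at ZT9. In C the citric acid cycle lay between 0.966 and 1.11, glycolysis between 0.915 and 1.07 and the pyruvate dehydrogenase complex between 0.854 at ZT9 and 1.16 at ZT13. Over all genes, the same measure in W lay between 0.905 and 0.983.

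**Figure D2:**
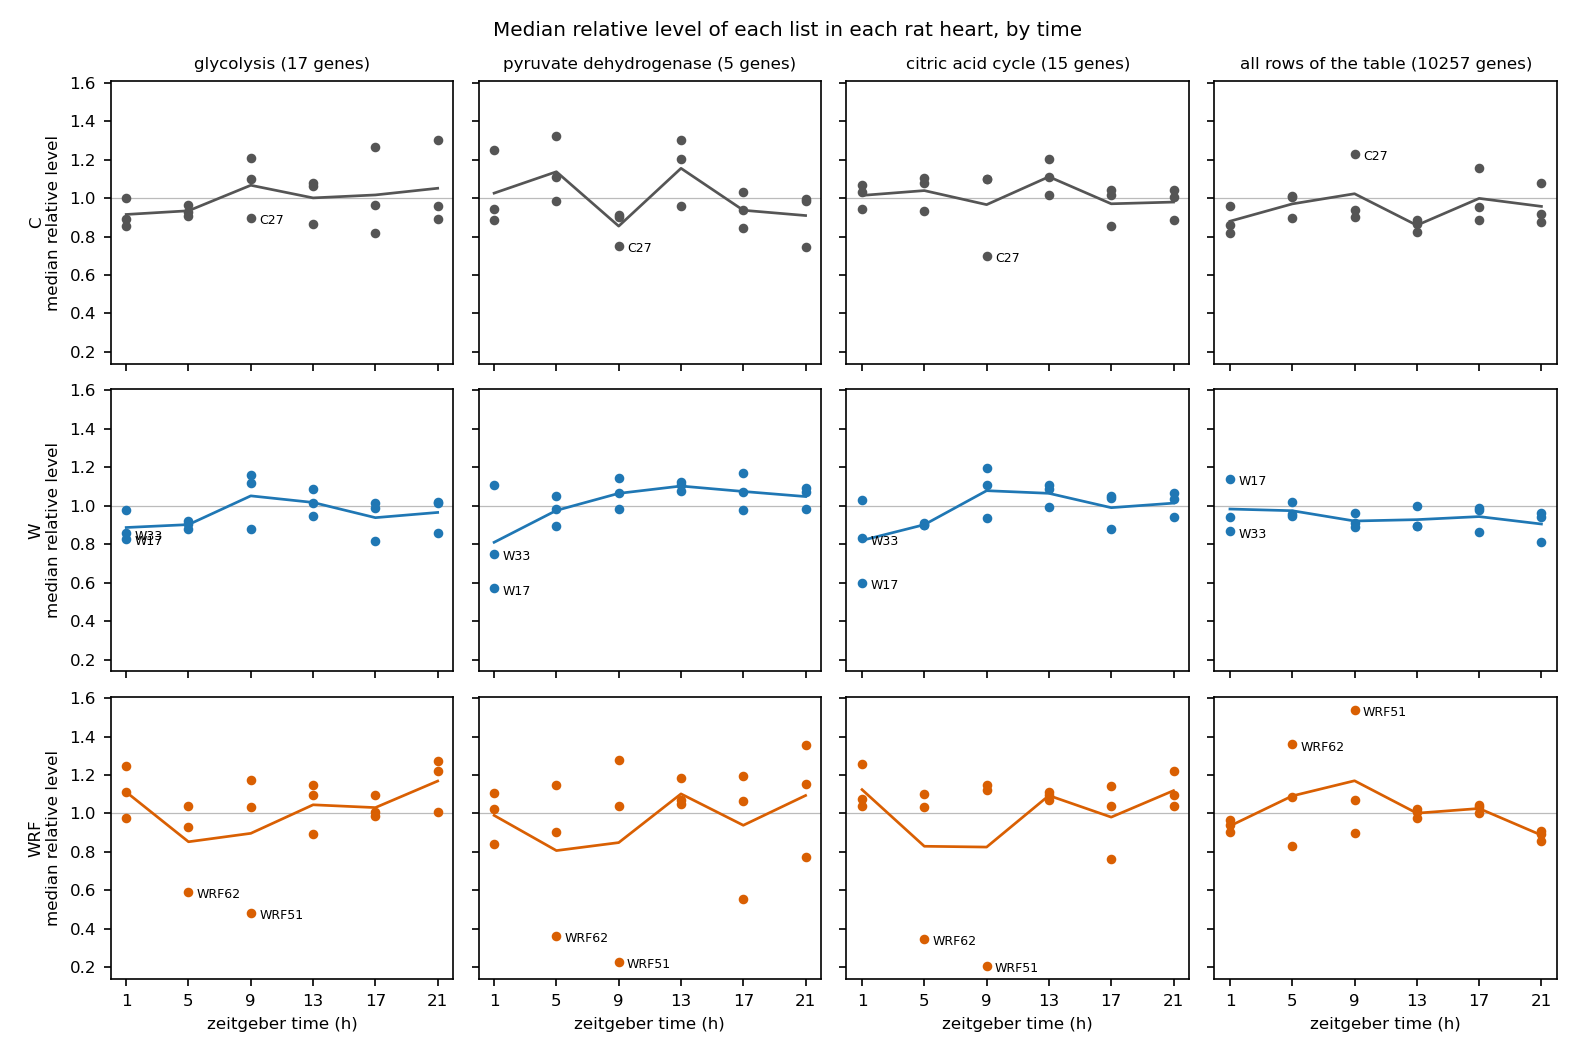
Each point is 1 heart: the median over a list of the level relative to each gene's mean over 54 hearts, against zeitgeber time, with lines through the mean of 3 hearts. Rows are C, W and WRF, columns are the 3 lists and all genes; W17 and W33 at ZT1 and WRF62 and WRF51 at ZT5 and ZT9 lie below the other hearts of their time for the citric acid cycle.

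By harmonic regression, a fit of a 24 h cosine to the fpkm values, 13 of 44 members had an unadjusted p under 0.05 in W, beside 3.05% of all genes. After Benjamini-Hochberg adjustment over all genes no member passed, and neither did any other gene in W (0 of 10257, beside 313 at an unadjusted p under 0.05). Combining 4 algorithms, whose p-values depend on each other, gave 9 members at q under 0.05, beside 1.82% of all genes. The 13 were Hk1, Pfkm and Pkm of glycolysis, Pdhx of the pyruvate dehydrogenase complex, Cs, Idh2, Idh3a, Ogdh, Dlst, Sucla2 and Sdha of the citric acid cycle, and the linked Me1 and Shmt2. The share was 3 of 17 in glycolysis, 1 of 5 in the pyruvate dehydrogenase complex, 7 of 15 in the citric acid cycle and 2 of 7 among the linked enzymes. The fitted peak, which exists for a gene with or without a rhythm, lay within 3 h of ZT13 for 39 of the 44 members in W, and for 21.3% of all genes. All 15 citric acid cycle members were among the 39. This window around ZT13 was not fixed in advance. The relative amplitude, that is the fitted amplitude divided by the fitted mean, had a median of 0.107 over the members and 0.0727 over all genes. These members come from the same 18 hearts and cannot be counted as separate observations of a rhythm. They were also chosen with earlier results of these data known, so their excess over all genes is not independent support for one.

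Ogdh, the E1 subunit of the 2-oxoglutarate dehydrogenase complex, had the smallest p in W. Its 3 W values were 82.9, 109 and 214 fpkm at ZT1, then 190, 201 and 202 (ZT5), 225, 256 and 268 (ZT9), 242, 243 and 261 (ZT13), 215, 225 and 245 (ZT17) and 193, 220 and 251 (ZT21). Both of the lowest W values were from ZT1, and the third ZT1 heart was within the range of the other times. In C, the values were 224, 250 and 274 fpkm at ZT1 and 203, 291 and 302 at ZT13, and the lowest was 140 at ZT9. The relative amplitude in W was 0.224 ± 0.057 (SE) with a peak at ZT13.1 (p = 0.00525, q = 0.9997).

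Dlst, the E2 subunit of the same complex, followed with 92.5, 127 and 161 fpkm at ZT1 and 182, 186 and 196 at ZT13. No ZT1 heart reached the level of any ZT13 heart. Its relative amplitude was 0.155 ± 0.040 (p = 0.00534). Pdhx, the subunit that ties E3 to the pyruvate dehydrogenase core, had 9.52, 15.6 and 19.9 fpkm at ZT1 and 24.5, 27.1 and 27.8 at ZT13, again with no overlap between the times. Its relative amplitude was 0.207 ± 0.058 (p = 0.0102). Cs, citrate synthase, which lets acetyl-CoA into the cycle, had 105, 120 and 229 fpkm at ZT1 and 235, 258 and 271 at ZT13. The ZT1 hearts lay below the ZT13 hearts, 1 of them only just, and the relative amplitude was 0.179 ± 0.056 (p = 0.0213).

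The other 4 members with the smallest p in W had lower amplitudes. Hk1, the hexokinase that starts glycolysis, peaked earlier than the others, at ZT9.23, with 42.5, 45.8 and 47.1 fpkm at ZT9, 31.9, 40.4 and 40.95 at ZT1 and 34.5, 34.6 and 42.2 at ZT17. All 3 ZT9 hearts were above those of ZT1 and ZT17 (relative amplitude 0.0990 ± 0.0280, p = 0.0107). Shmt2 had 9.76, 10.4 and 14.9 fpkm at ZT1 and 14.35, 14.4 and 14.98 at ZT13 (0.120 ± 0.035, p = 0.0122). Idh3a, the catalytic subunit of the NAD-dependent isocitrate dehydrogenase, had 47.3, 57.4 and 78.2 fpkm at ZT1 and 79.5, 81.7 and 83.1 at ZT13 (0.114 ± 0.037, p = 0.0232). Pkm, the pyruvate kinase of muscle, had 212, 232 and 292 fpkm at ZT1 and 314, 316 and 330 at ZT13 (0.103 ± 0.033, p = 0.0243). In Idh3a and Pkm the ZT1 and ZT13 hearts did not overlap, and in Shmt2 they did.

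**Figure D3:**
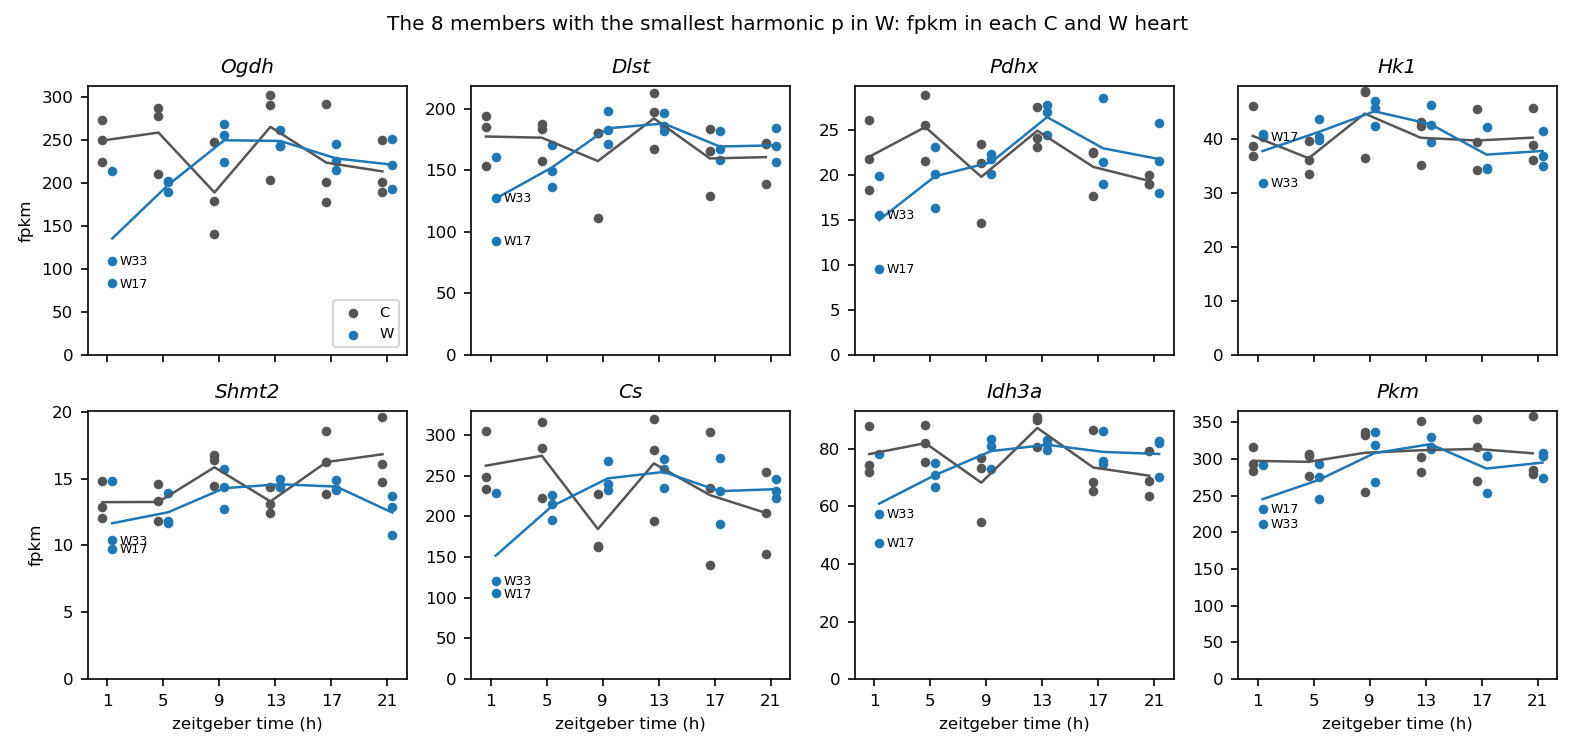
Points are the fpkm of single C (grey) and W (blue) hearts against zeitgeber time, drawn side by side, with lines through the mean of 3 hearts; W17 and W33 are named. In 7 of the 8 genes these 2 hearts are the lowest W hearts at ZT1, while the third, W1, lies near the C hearts; in Hk1 only W33 is low.

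The other 5 members with an unadjusted p under 0.05 in W gave relative amplitudes from 0.111 to 0.157. They were Sucla2 (0.123), a subunit of succinyl-CoA synthetase, Me1 (0.157), the cytosolic malic enzyme, Idh2 (0.148), Pfkm (0.111), the muscle phosphofructokinase, and Sdha (0.119), the flavoprotein of succinate dehydrogenase. Their peaks lay between ZT12.5 and ZT13.8. The 5 members whose fitted peak lay outside that window in W were all of glycolysis: Hk1 at ZT9.23, Pfkl at ZT8.75, Eno3 at ZT8.79, Pgam1 at ZT0.972 and Pfkp at ZT1.83. Of these only Hk1 had a p under 0.05.

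A rhythm in W and none in C is not shown to differ unless the difference is tested. The difference of the 24 h cosine between W and C was tested for every gene by limma on log2(fpkm + 1). None of the 44 members had an unadjusted p under 0.05, beside 1.83% of all genes, and none passed after adjustment (0 of 10257 genes; 188 at an unadjusted p under 0.05). The smallest unadjusted p among the members was 0.139, for Pfkl. For Pdhx it was 0.182 and for Ogdh 0.199. Without WRF51, WRF62 and W21, Pdhx and Ogdh had an unadjusted p under 0.05, beside 4.25% of all genes. A time effect of any shape in W reached an unadjusted p under 0.05 for 0 of 44 members, beside 0.331% of all genes. For 4 members (Pdhx, Ogdh, Dlst and Sdha) it did without those 3 hearts, beside 1.43% of all genes. No member passed either test after adjustment.

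Time by time, W lay below C at ZT1 for 37 of 44 members and for 32.7% of all genes, with a median log2 difference of -0.26 over the members and 0.12 over all genes. The median was -0.38 for the citric acid cycle, with all 15 members below 0, -0.28 for the pyruvate dehydrogenase complex and -0.03 for glycolysis. Ogdh was 1 of 44 members with an unadjusted p under 0.05 there, beside 5.06% of all genes (log2 difference -0.99 ± 0.42 SE, limma adjusted p = 0.861). Its 2 lowest W hearts were below every C heart at ZT1 and the third was at 214 fpkm, just under the lowest C heart at 224. Without WRF51, WRF62 and W21, 13 members had an unadjusted p under 0.05 at ZT1, beside 12.6% of all genes, and none an adjusted p under 0.05.

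At the other times no member reached an unadjusted p under 0.05 in W against C, beside 0.955% (ZT5), 1.35% (ZT9), 0.77% (ZT13), 0.858% (ZT17) and 0.868% (ZT21) of all genes. At ZT5 the members again lay below C, with a median of -0.15 (37 of 44 below 0; 51.1% of all genes). At ZT9 the median turned to 0.12, with 10 of 44 members below 0 and 69.9% of all genes. No citric acid cycle or pyruvate dehydrogenase member was below 0 at ZT9. Over all members and over the citric acid cycle that turn depended on C27, a ZT9 heart with 16085 fpkm of Myl7. Without C27 the median was -0.09 over the members, with 28 of 44 below 0, beside 52.2% of all genes. It was -0.05 over the citric acid cycle, with 8 of 15 below 0. Over the pyruvate dehydrogenase complex it stayed above 0, at 0.28, with 2 of 5 below 0. At ZT13, ZT17 and ZT21 the medians were -0.02, -0.02 and 0.01.

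The low values at ZT1 in W came from 2 of the 3 hearts. W17 was the lowest of the 18 W hearts for 30 of 44 members and for 10.4% of all genes, and among the citric acid cycle genes for 14 of 15. W33 was among the lowest pair of W hearts for 21 members and for 23.4% of all genes. Over the citric acid cycle the median relative level was 0.601 in W17 and 0.831 in W33, and 1.03 in W1, the third heart of that time. For the pyruvate dehydrogenase complex it was 0.571, 0.751 and 1.11, and for glycolysis 0.828, 0.856 and 0.977. Without W17, 6 members had an unadjusted p under 0.05 for a rhythm in W, beside 2.89% of all genes. Without W33 it was 5 members, beside 2.49%. Without both, Hk1, Ogdh and Dlst remained, beside 2.11%, but the fitted peak still lay within 3 h of ZT13 for 38 of 44 members and 24.2% of all genes. The median relative amplitude of the members was then 0.0556, and that of all genes 0.0569. Without both hearts no member had an unadjusted p under 0.05 in W against C at any time, with no share of all genes given beside it.

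Other transcripts moved with these hearts. Myl7, the atrial myosin light chain, was at 20489 fpkm in W17, the highest of the W hearts, with Nppa at 30522, Sln at 6305 and Myl4 at 5139, while in W33 and W1 Myl7 was at 13.6 and 29.1 fpkm. C27, the C heart with the most Myl7 (16085 fpkm), was the lowest C heart for 13 of 15 citric acid cycle genes, with a relative level of 0.700. The WRF heart with the most Myl7, WRF44 (23938 fpkm), had 0.764, while WRF46 (10519 fpkm) had 1.04. Across the 51 hearts other than WRF51, WRF62 and W21, the Spearman correlation with Myl7 had a median of -0.27 over the 15 citric acid cycle genes, all below 0, of -0.28 over the pyruvate dehydrogenase complex, of -0.06 over glycolysis and of 0.28 over all genes. Within the groups it was -0.39 in W, -0.60 in C and -0.29 in WRF (without WRF51 and WRF62) for the citric acid cycle. For the pyruvate dehydrogenase complex it was 0.12, -0.35 and -0.57, and for glycolysis -0.29, -0.46 and 0.29, so the sign differed between the groups in these 2 lists. All genes were read in the same hearts, so the values are a description. Arntl, at 2.52 fpkm in W33, was at 10.6 in W17, 12.9 in W1 and 10.8 to 14.003 in the C hearts of ZT1. With Myl7 as a covariate, 14 members had an unadjusted p under 0.05 for a rhythm in W, beside 3.84% of all genes. Among the 11 W hearts with at most 100 fpkm of Myl7, 9 did, beside 8.99% of all genes. These 11 include every heart of the W33 to W38 series, whose Arntl went against the time labels. At ZT1 they hold W1 and W33 only.

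**Figure D4:**
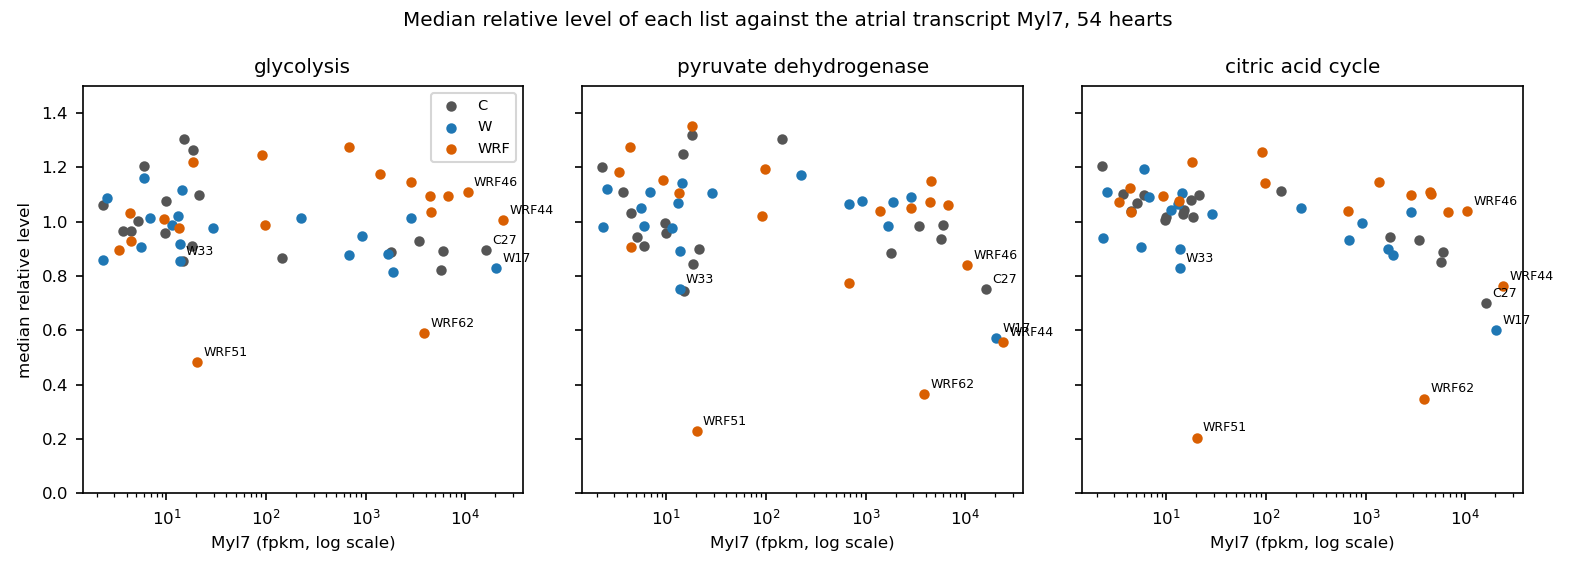
Each point is 1 of 54 hearts: the median relative level of a list against the fpkm of Myl7 on a log axis, coloured by group. Hearts above 10000 fpkm of Myl7 (W17, C27, WRF44 and WRF46) are spread from 0.601 to 1.04 for the citric acid cycle, and WRF51 and WRF62 lie lowest in all 3 lists.

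The 3 series of W rats, each with 1 heart per time, differed. From ZT1 to ZT13, 25 of 44 members were higher at ZT13 in the W1 to W11 series (median log2 difference 0.04), 37 in the W17 to W22 series (0.60) and 43 in the W33 to W38 series (0.40). Over all genes the shares were 39.0%, 35.3% and 53.4%. In C the counts were 40, 34 and 20 of 44, with medians of 0.29, 0.06 and -0.01, and the shares of all genes 35.8%, 61.7% and 40.6%. Members with an unadjusted p under 0.05 for a rhythm in W numbered 8 without the W1 to W11 series (1.89% of all genes), 9 without the W17 to W22 series (4.23%) and 2 without the W33 to W38 series (4.49%). The 2 were Hk1 and Idh1, and the fitted peak then lay within 3 h of ZT13 for 32 of 44 members and 21.3% of all genes, with median relative amplitudes of 0.0983 and 0.0841. Without W21 alone, 17 members did, beside 3.53%.

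In C hearts none of the 44 members had a rhythm, at q under 0.05 (beside 0.848% of all genes) or at an unadjusted p under 0.05 (beside 5.91%). The smallest p was that of Pfkl, the liver phosphofructokinase, which had 10.1, 13.4 and 16.4 fpkm at ZT5 and 16.7, 17.6 and 25.2 at ZT17 (p = 0.109). Eno1, the enolase found in most tissues, had 177, 181 and 214 fpkm at ZT1 and 207, 318 and 358 at ZT9 (p = 0.177). Pgam1 had 68.9, 80.5 and 104 fpkm at ZT5 and 108, 130 and 138 at ZT21 (p = 0.181). The extreme times overlapped in Eno1 and not in Pfkl and Pgam1. The median relative amplitude in C was 0.0497 over the members and 0.0806 over all genes, and the amplitude in W exceeded that in C for 36 of 44 members and 42.9% of all genes. In WRF the median was 0.141 over the members and 0.196 over all genes, and it exceeded that in C for 40 of 44 members and 80.1% of all genes. Without WRF51 and WRF62 these were 0.0638, 0.112, 29 of 44 and 64.2%. The fitted peaks in C were more spread than in W, with 22 of 44 within 3 h of ZT13 and 30.1% of all genes. The mean peak over all 44 members was nearly the same, at ZT13.0 in C and ZT12.8 in W, but the lists differed. In C it was ZT14.9 for glycolysis, ZT7.13 for the pyruvate dehydrogenase complex, ZT10.5 for the citric acid cycle and ZT16.5 for the linked enzymes. In W these were ZT11.5, ZT13.8, ZT13.4 and ZT13.0.

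**Figure D5:**
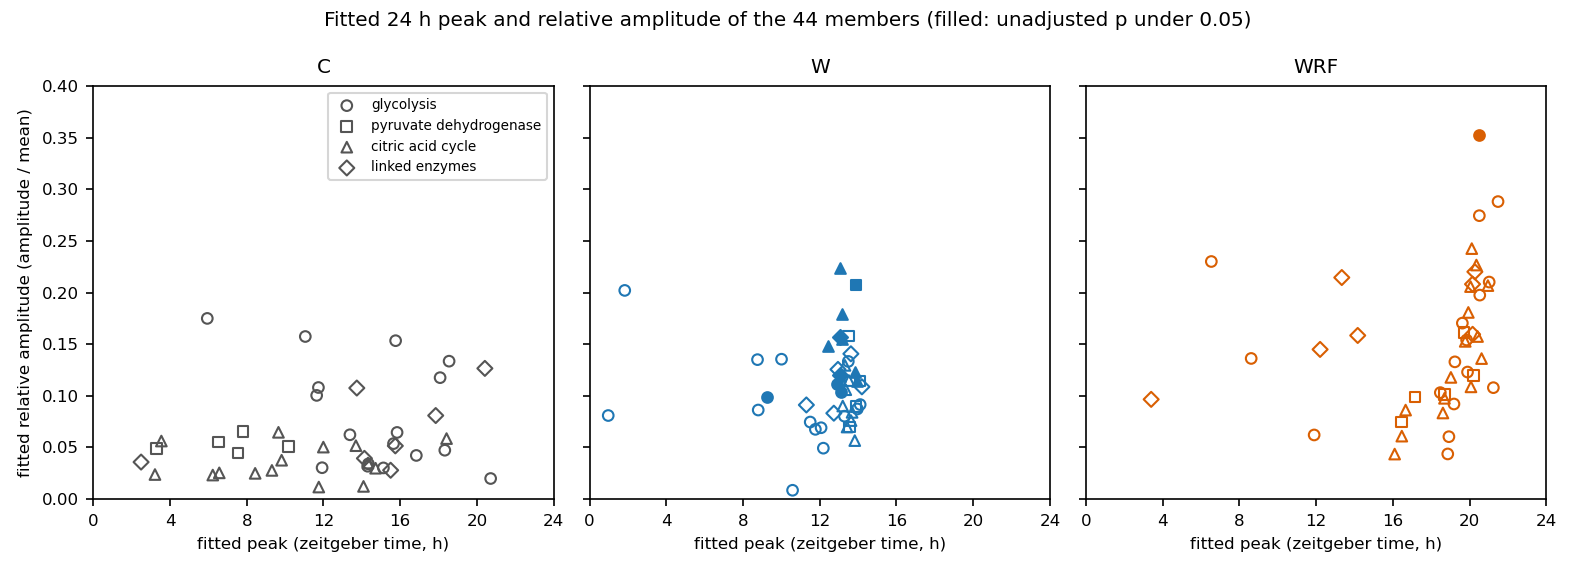
Fitted peak time and relative amplitude of each of the 44 members in C, W and WRF, with the list given by the marker and members at an unadjusted p under 0.05 filled. In W 39 peaks lie within 3 h of ZT13, and in C 22 do. In WRF 33 lie within 3 h of ZT20 (11 without WRF51 and WRF62, which is not drawn).

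In WRF hearts 1 member, Pgam2, had an unadjusted p under 0.05 for a rhythm, beside 6.35% of all genes, and none had q under 0.05, beside 0.039%. Pgam2 is the muscle form of phosphoglycerate mutase. Its values were 12.5, 466 and 506 fpkm at ZT9 and 528, 649 and 973 at ZT21, with a relative amplitude of 0.353 and a peak at ZT20.5 (p = 0.0316, q = 0.569). The lowest of them was WRF51, and without WRF51 and WRF62 the p was 0.115. Ldhb had 104, 2246 and 2390 fpkm at ZT9 and 2635, 2875 and 2937 at ZT21 (p = 0.0804), and Suclg1, the alpha subunit of succinyl-CoA synthetase, 91.3, 344 and 394 at ZT9 and 398, 475 and 488 at ZT21 (p = 0.0846). In these 3 genes all ZT21 hearts lay above all ZT9 hearts. For Ldhb and Suclg1 the p is given with all WRF hearts only, WRF51 and WRF62 among them. The fitted peak in WRF lay within 3 h of ZT20 for 33 of 44 members and for 17.8% of all genes, a window chosen after the peaks were seen. Without WRF51 and WRF62 it did so for 11 of 44 members and 21.8% of all genes, so the shared peak time rested on these hearts.

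WRF51 and WRF62 were taken at ZT9 and ZT5. WRF51 was the lowest WRF heart for 36 of 44 members and for 11.8% of all genes, with a relative level of 0.205 over the citric acid cycle, and WRF62 had 0.349. Against C, 8 members had an unadjusted p under 0.05 at ZT9 (Pfkm, Gapdh, Pgam2, Eno3, Sdhc, Mdh2, Idh1 and Mdh1), beside 8.28% of all genes. At ZT5, Ogdh and Shmt2 did, beside 17.5%, and at ZT13 Pfkp did, beside 4.58%. No member did at ZT1 (7.77% of all genes), ZT17 (2.69%) or ZT21 (2.23%), and none passed after adjustment at any time. Without WRF51, WRF62 and W21, no member reached an unadjusted p under 0.05 at ZT5 or ZT9, with no share of all genes given beside it. The cosine of WRF differed from that of C at an unadjusted p under 0.05 for Eno3 alone, beside 5.76% of all genes (p = 0.0388, limma adjusted p = 0.618), and for no member without those 3 hearts. Eno3, the muscle enolase, had 13.8, 225 and 259 fpkm at ZT9 in WRF and 259, 326 and 492 in C. No WRF heart lay above the C hearts, and the lowest was WRF51. A time effect of any shape reached an unadjusted p under 0.05 in WRF for 4 members (Pgam2, Suclg1, Mdh1 and Me1), beside 11.5% of all genes. For 12 of the 18 WRF rats the sample title and the other labels give different times, and the title is used here. With the other time 17 of the 264 tests of WRF against C by time had an unadjusted p under 0.05 in place of 11. No share of all genes is given for the other time, so this count describes the members only.

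Pairs of gene products, most of them forms of 1 enzyme, were compared within each heart as log2 ratios, called isoform ratios. A change of scale of the whole library cannot alter such a ratio. In C the muscle form exceeded the other form by a geometric mean of 11.8 for Pfkm over Pfkl, 4.75 for Pgam2 over Pgam1 and 1.204 for Eno3 over Eno1, and Ldhb exceeded Ldha by 3.72. Hk2 stood at 0.281 of Hk1, and Suclg2, the GTP-forming subunit of succinyl-CoA synthetase, at 0.378 of the ATP-forming Sucla2. Idh2 exceeded Idh3a, a subunit of a separate isocitrate dehydrogenase, by 13.1. Got2, the mitochondrial aspartate aminotransferase, exceeded the cytosolic Got1 by 1.31. None of the 8 ratios differed from C in W or WRF by a permutation test (16 tests, 18 hearts a group, lowest adjusted p = 0.652). The log2 difference of W from C ran from -0.05 ± 0.14 (SE) for Pgam2 over Pgam1 to 0.17 ± 0.13 for Hk2 over Hk1. In WRF, Pfkm over Pfkl differed by -0.60 ± 0.36 (p = 0.0816) and Eno3 over Eno1 by -0.52 ± 0.28 (p = 0.0694), permutation tests, two-sided. In both ratios WRF spread more widely (SD 1.47 and 1.17) than C (0.35 and 0.29). Without the WRF1 to WRF6 series the unadjusted p of these 2 ratios were 0.0051 and 0.019, and without WRF51, WRF62 and W21 the differences were -0.12 and -0.15 (permutation p = 0.336 and 0.281).

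The other genes of these pathways, transporters, regulators, glycogen and pentose phosphate enzymes, were also read: 76 of 92 listed were in the table. In W 14 of the 76 had an unadjusted p under 0.05 for a rhythm, against 5 in C and 2 in WRF, beside 3.05%, 5.91% and 6.35% of all genes, and none passed the adjustment. The smallest p was that of Pdk4, the kinase that switches off pyruvate dehydrogenase. Its W values were 8.42, 8.90 and 49.3 fpkm at ZT1, with W17 and W33 the low hearts, and 71.4, 121 and 128 at ZT17. All ZT17 hearts lay above all ZT1 hearts, and the relative amplitude was 0.661 with a peak at ZT16.2 (p = 0.00132, q = 0.9997). The fit of Pdk4 is given with all W hearts only, W17 and W33 among them. Sdhaf2, an assembly factor of succinate dehydrogenase, Gbe1, the glycogen branching enzyme, Gys1, the muscle glycogen synthase, and Tigar, a fructose bisphosphatase, followed with relative amplitudes of 0.068, 0.146, 0.0977 and 0.0966 and p between 0.00954 and 0.0267. Their fitted peaks lay between ZT10.6 and ZT13.5. None of the 76 had an unadjusted p under 0.05 for a cosine that differed between W and C.

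Among the groups, 3 of the 76 passed the Kruskal-Wallis test, all higher in WRF than in C, beside 9.17% of all genes that passed and 8.13% called higher in WRF than in C. They were Taldo1 and Pgd, of the pentose phosphate pathway, and Pck1, the cytosolic phosphoenolpyruvate carboxykinase. Taldo1 had medians of 44.2, 44.7 and 53.01 fpkm in C, W and WRF (adjusted p = 0.0169), and Pgd 17.1, 16.4 and 22.4 fpkm (adjusted p = 0.0210). Pck1 had 0.348, 0.436 and 2.56 fpkm (adjusted p = 0.0430). The highest WRF hearts reached 203, 78.4 and 182 fpkm in these 3 genes. Their calls are given with all hearts only, WRF51 and WRF62 among them. Rpia, Pgls and Slc2a12, the next by p, had adjusted p of 0.0632, 0.0698 and 0.0802. The summed level of the adipocyte markers Adipoq and Cfd (2 of 4 listed were measured) ran from 4.19 to 63.5 fpkm in C, from 3.32 to 28.3 in W and from 7.45 to 390 in WRF, where WRF62 was highest, and its part in these results was not tested.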

How the data were processed

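The authors sequenced directional RNA libraries of 54 rat hearts. Per the labels they used TopHat2 and Cufflinks with the rn6 build (versions not given in the sources used here). The deposited table holds FPKM values, not counts, of 10257 rows, each above 1 FPKM in at least 18 rats; 497 rows share all their values with another row. All sample columns were used (0 left out). Groups and times were taken from sample titles. Series of 6 hearts, 1 per time, were read from the rat numbers.

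Values were used unscaled. Groups were compared by Kruskal-Wallis and Mann-Whitney tests, with Benjamini-Hochberg adjustment over all rows, and sizes by limma 3.58.1 (R 4.3.3) on log2(FPKM + 1), which also gave the tests by time and of rhythm differences. A fold change on that scale understates the change of low genes. Rhythms were fitted by harmonic regression with a 24 h period (Python 3.11.15, scipy 1.17.1), in place of the several algorithms that the study combined. ARSER and RAIN were not run. JTK, Lomb-Scargle and F24 (10000 permutations) were run as alternatives. Isoform ratios were tested with 100000 permutations. p-values measure the spread between these rats. Scripts were tested on simulated data.

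The members and lists were chosen with earlier results of these data known. Described in full were the 8 members with the smallest harmonic p in W, the 3 in C and in WRF, the 6 with the smallest Kruskal-Wallis p, and the genes of the isoform ratios. Other pathway genes were named when among the 6 smallest p in W or by Kruskal-Wallis; 1 of them is not reported here. Values without single libraries or with low Myl7 were added after the data were seen.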

Additional observations from a re-analysis of the deposited data

How the results depend on the processing

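The values below count members, out of 44, unless tests are named. Rhythms, cosine differences, time effects and tests by time are counted at an unadjusted p under 0.05. Counts with no share of all genes beside them describe the members only and cannot be set against the background. Alternatives that left out W17, W33, C27, WRF51 with WRF62 for peaks, or hearts above 100 fpkm of Myl7 were chosen after the data were seen.

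Without WRF51, WRF62 and W21, the count called in W against C was 1 (main 0) and in WRF against C 1 (main 0), both Shmt2; members with a rhythm in WRF were 0 (main 1), with a cosine that differed from C 2 in W (main 0) and 0 in WRF (main 1), and with a time effect in W 4 (main 0); tests by time past an unadjusted p of 0.05 were 14 in W (main 1) and 4 in WRF (main 11). Median-of-ratios scaling gave 0 called among the groups and in WRF against W (main 1 each), 2 with a rhythm in C (main 0), and 3 and 6 tests by time in W and WRF. A floor of 5 fpkm gave 2 called among the groups, 1 in WRF against C and 2 in WRF against W, Pfkp being added. Low-Myl7 hearts gave 0 among the groups and in WRF against W, by rank tests and limma, and 2 rhythms in C and 0 in WRF. The Myl7 covariate gave 1 rhythm in C. JTK gave 7 rhythms in W (main 13) and 0 in WRF. The log2 scale gave 0 in WRF. The combination of 4 algorithms by Fisher's method, whose p-values depend on each other, was counted here at an unadjusted p under 0.05. It gave 2, 21 and 8 in C, W and WRF. Without W17, W33 or both, rhythms in W were 6, 5 and 3, and tests of W against C by time were 0, 2 and 0. The other time labels gave 0 cosine differences in WRF and 17 tests by time.

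Leaving out 1 series of 6 hearts moved the count among the groups between 0 and 6, in W against C between 0 and 1, in WRF against C and against W between 0 and 6, rhythms in C between 0 and 3, in W between 2 and 9 and in WRF between 0 and 1, cosine differences of WRF between 0 and 14, time effects in W between 0 and 1, and tests by time between 0 and 5 in W and between 4 and 48 in WRF. The highest counts of WRF came without WRF1 to WRF6, where 31.2% of all genes were called among the groups, 26.6% had an unadjusted cosine difference and 17% of all tests by time passed. Without either other WRF series, 0 of 10257 genes were called among the groups by Kruskal-Wallis (1490 and 1569 unadjusted). The cause was not tested. No isoform ratio passed under any alternative. Of 141 values of named genes under alternatives, 96 kept their side of the threshold, 42 lost and 3 gained it, and 0 reversed.

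Rat numbers shared by 12 C and 12 W rats were not shown to pair them. Deviations of same-numbered rats from their group means correlated from -0.18 to 0.65, above 0.1 in 6 of 12. Only 1 of 12 C rats correlated best with its own number. Same-numbered rats also share a time, which was not removed, so these values cannot decide whether the numbers pair the rats. With the number as a replicate block in limma, 0 members were called in W against C (19 unadjusted, beside 16.6% of all genes; with no block, 0 called and 13 unadjusted in the same 24 rats, beside 8.65%).

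Depth per heart is not given in the table, so low members such as Pfkp carry an unknown counting error.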
